A study of Homo sapiens with 12 samples.

Results

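The genes described here are 34 genes of homologous recombination and of the Fanconi anemia pathway. They were taken by gene symbol from expression tables that listed 22650 genes in any library, and all 34 were listed in each of the 12 libraries. RNA was sequenced from Panc1 and MiaPaCa2, a pair of human cell lines from pancreatic ductal adenocarcinoma, with 3 libraries of each of 4 groups: Panc1 ASAP2 knockout, Panc1 wild-type, MiaPaCa2 ASAP2 knockout and MiaPaCa2 wild-type. ASAP2 is a GTPase-activating protein for Arf proteins. The labels name no other allele and no treatment, and how the knockout was made, the number of clones and whether the 3 libraries of a group are separate cultures are not stated there. The p-values therefore cover the spread among the libraries of a group, pooled over the 4 groups, and that spread may be technical.

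Homologous recombination repairs a DNA double-strand break by copying an intact sister chromatid. Broken ends are recognised and cut back to single strands, BRCA1, PALB2 and BRCA2 act on those strands, and the strand then invades the sister. The Fanconi anemia pathway acts on crosslinks between DNA strands: a core complex ubiquitinates FANCD2 and FANCI, and the break that arises is passed on to homologous recombination. Inherited mutations of BRCA2, PALB2 and ATM are among the known predispositions to pancreatic cancer.

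Values are FPKM, fragment counts scaled to transcript length and to the mapped fragments of the library, and read depth is unknown. Differences are knockout minus wild-type on the log2(FPKM + 1) scale, which understates the change of low genes. They were tested with limma over 13340 genes, and a gene was called at a Benjamini-Hochberg adjusted p below 0.05. Between 11842 and 12500 genes reached 1 FPKM per library, and libraries of a group correlated across genes at r = 0.9962 to 0.998. ASAP2 mRNA was 13.8 ± 0.978 FPKM in Panc1 knockout and 36.9 ± 2.04 FPKM in Panc1 wild-type libraries (SD, n = 3 each; log2 difference -1.36, adjusted p = 1.5e-08). In MiaPaCa2 it was 12.3 ± 1.29 FPKM in knockout and 13.5 ± 0.32 FPKM in wild-type libraries (log2 difference -0.13, adjusted p = 0.197), so its RNA level does not check the knockout label there. Epithelial markers moved with the groups. Of the 6 measured, KRT19 was lower in knockout libraries of both lines, at 254 FPKM in Panc1 knockout and 541 FPKM in Panc1 wild-type (-1.09, adjusted p = 1.4e-07), and at 35.01 FPKM in MiaPaCa2 knockout and 105 FPKM in MiaPaCa2 wild-type libraries (-1.57, adjusted p = 2.6e-08). KRT8 and KRT18, with means of 310 to 649 FPKM, were higher in Panc1 knockout (0.46 and 0.38) and lower in MiaPaCa2 knockout libraries (-0.50 and -0.31). EPCAM was higher in Panc1 knockout libraries (0.31, adjusted p = 0.00493), and KRT7 was called in neither line. The part of these markers in the results was not tested. EPCAM and CDH1 had means of 3.49 and 0.372 FPKM in Panc1 knockout and 2.63 and 0.328 FPKM in Panc1 wild-type libraries, while in MiaPaCa2 EPCAM was at 0 in both groups and CDH1 at a mean of 0.01 FPKM in both. The 10 markers of blood, endothelial, fibroblast, islet and acinar cells summed to 163 to 178 FPKM in Panc1 and 18.3 to 28.5 FPKM in MiaPaCa2 libraries, nearly all of it CD68, and PTPRC and PECAM1 did not exceed a mean of 0.004 FPKM in any group.

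The promoters of the 3 members with the largest Panc1 difference on the log2(FPKM + 1) scale, and of FANCF, the member with the largest MiaPaCa2 difference on that scale (chosen after its values were seen), are printed so that their start regions can be compared. They are from RefSeq on GRCh38.p14 and run from 250 bases before to 50 bases after the gene start, 5′ to 3′ on the gene's strand. The windows are chr5:132556727-132557026 on the plus strand for RAD50, and on the minus strand chrX:14873020-14873319 for FANCB, chr7:152676092-152676391 for XRCC2 and chr11:22625774-22626073 for FANCF. Capitals mark matches to an E2F motif (TTT, then GG, GC, CG or CC, then CGC) or to the CCAAT box, on either strand.
RAD50: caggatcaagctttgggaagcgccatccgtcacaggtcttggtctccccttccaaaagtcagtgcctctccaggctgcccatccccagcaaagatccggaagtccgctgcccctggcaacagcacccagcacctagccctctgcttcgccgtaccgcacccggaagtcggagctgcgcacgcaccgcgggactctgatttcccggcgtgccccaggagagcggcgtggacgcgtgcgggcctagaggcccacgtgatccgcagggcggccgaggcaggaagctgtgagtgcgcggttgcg
FANCB: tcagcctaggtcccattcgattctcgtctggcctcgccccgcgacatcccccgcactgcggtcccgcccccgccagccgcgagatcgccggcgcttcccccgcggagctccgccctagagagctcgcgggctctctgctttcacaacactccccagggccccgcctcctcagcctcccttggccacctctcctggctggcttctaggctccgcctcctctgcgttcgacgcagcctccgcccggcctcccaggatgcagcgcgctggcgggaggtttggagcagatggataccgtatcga
XRCC2: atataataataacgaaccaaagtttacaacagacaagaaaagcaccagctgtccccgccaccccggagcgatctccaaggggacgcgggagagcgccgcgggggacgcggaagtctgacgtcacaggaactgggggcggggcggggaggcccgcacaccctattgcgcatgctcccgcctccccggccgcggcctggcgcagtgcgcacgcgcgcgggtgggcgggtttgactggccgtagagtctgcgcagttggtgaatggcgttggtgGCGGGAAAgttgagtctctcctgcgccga
FANCF: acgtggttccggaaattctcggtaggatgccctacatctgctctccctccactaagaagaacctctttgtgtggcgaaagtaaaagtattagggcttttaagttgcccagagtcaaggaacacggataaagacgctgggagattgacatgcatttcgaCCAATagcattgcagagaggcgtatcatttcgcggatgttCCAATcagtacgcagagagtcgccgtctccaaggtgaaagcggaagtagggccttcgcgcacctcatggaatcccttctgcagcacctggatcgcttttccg
XRCC2 held 1 E2F match, after its start and on the other strand, FANCF held 2 CCAAT boxes, and neither motif was found in the RAD50 and FANCB windows. Promoters of 31 members were in the table. An E2F match was found in 5 of them (16.1%: EXO1, XRCC2, FANCA, FANCC and FANCD2), against 5.58% of 9917 promoters of genes tested and 3.33% of all 27305 promoters. A CCAAT box was found in 41.9% of the members' promoters, 36.8% of those tested and 35.7% of all. The motif TTTGAA, the cell cycle homology region, was found in 9.68% of the members' promoters, 9.32% of those tested and 15.4% of all. No E2F match overlapped a match of the other motifs in the members' promoters.

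In Panc1, 28 of the 34 members were lower in knockout than in wild-type libraries, RAD51B was higher, and 5 were not called (BARD1, RAD51C, XRCC3, FANCC and SLX4). Of all genes tested 41.6% were called lower and 21.8% higher, against 82.4% and 2.94% of the members. The members' median difference was -0.40 and that of all genes -0.10, so the members' median minus that of all genes was -0.30. The 34 genes summed to 223 to 237 FPKM in Panc1 knockout and 304 to 327 FPKM in Panc1 wild-type libraries. In bulk RNA, fewer cells that express a gene and less RNA per cell cannot be told apart. The groups did not overlap for 30 of the 34 members, and for 70.1% of all genes tested. In MiaPaCa2, 11 members were lower in knockout libraries and none was higher, at a background of 16.3% called lower and 17.8% called higher. Another 23 were not called there, and the median difference was -0.16 against 0.01 for all genes. The groups did not overlap for 11 members, and for 43.5% of all genes. The 34 genes summed to 304 to 319 FPKM in MiaPaCa2 knockout and 345 to 362 FPKM in MiaPaCa2 wild-type libraries.

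**Figure D1:**
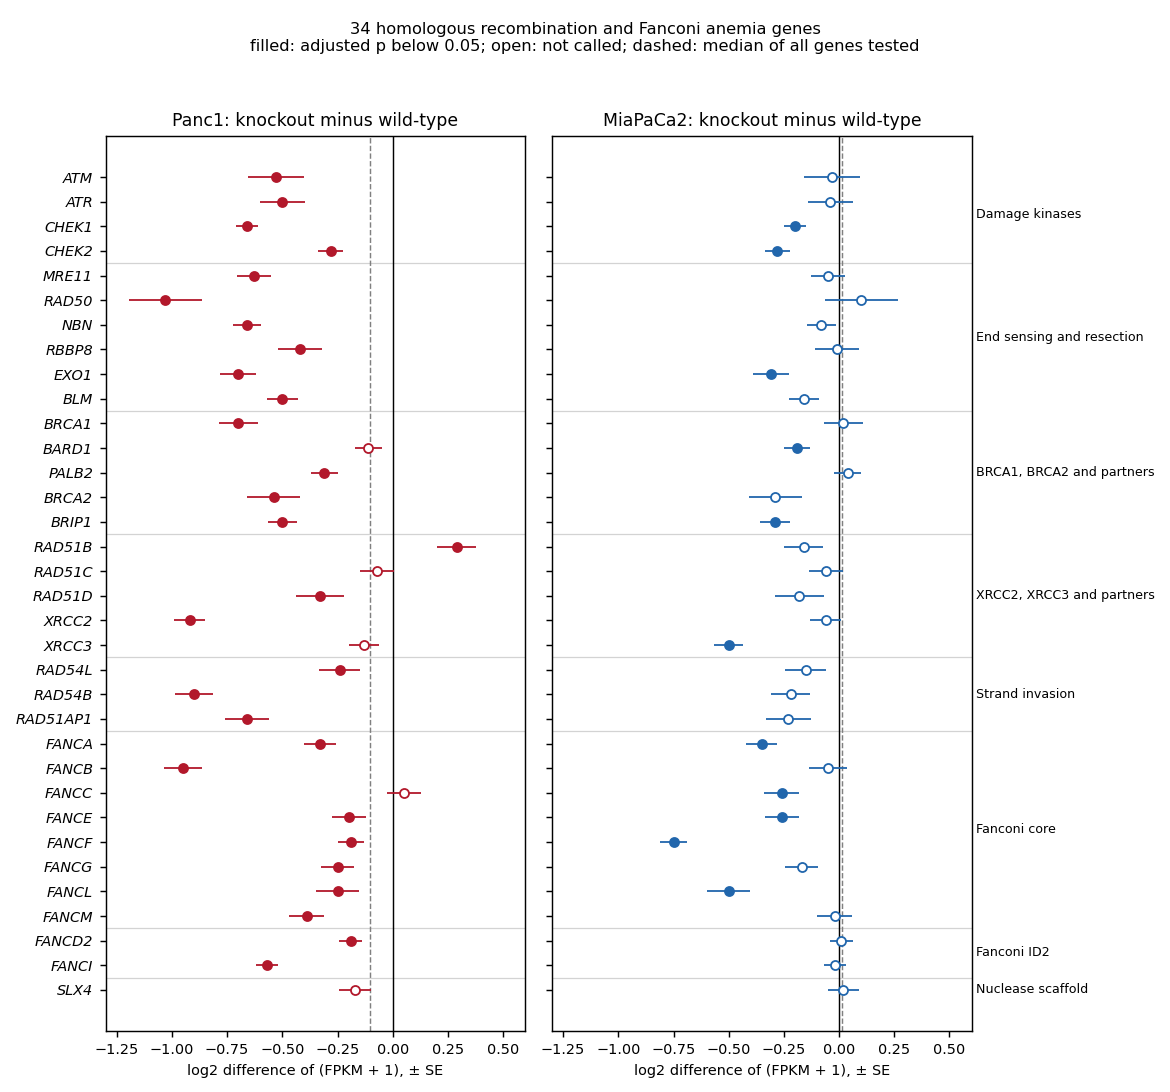
Knockout minus wild-type difference of each of the 34 genes, on the log2(FPKM + 1) scale with its standard error, in Panc1 (left) and MiaPaCa2 (right), grouped by role. Filled points were called at an adjusted p below 0.05, and the dashed line is the median of all genes tested. Panc1 points run from -1.03 (RAD50) to 0.29 (RAD51B) and MiaPaCa2 points from -0.75 (FANCF) to 0.10 (RAD50).

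The share of Panc1 members called lower depended on how the libraries were scaled. All genes tested had 65.6% of their Panc1 calls lower with FPKM as deposited, and 47.9% after scaling each library by the median ratio, which moved the median of all genes to 0.00 on the log2 scale. With that scaling 21 members were lower and 1 was higher in Panc1 knockout libraries, 61.8% and 2.94% of the members against 29.4% and 32.0% of all genes. With quantile normalization 21 were lower and 2 higher, against 32.0% and 29.5% of all genes. After every library was corrected for its trend with GC content and transcript length, 23 were lower and 3 higher, 67.6% and 8.82% of the members against 31.1% and 29.1% of all genes. In MiaPaCa2 the same 3 settings gave 11, 14 and 15 members lower and none higher, against 16.9%, 15.3% and 19.1% of all genes lower.

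The kinases ATM and ATR start the damage response, ATM at breaks and ATR at exposed single strands, and they act on the checkpoint kinases CHEK2 and CHEK1. All 4 were lower in Panc1 knockout libraries, by 0.28 to 0.66 on the log2 scale. Beside this count and those of the gene groups that follow, 41.6% of all genes were called lower in Panc1 and 16.3% in MiaPaCa2. CHEK1 was at 11.1, 10.5 and 10.7 FPKM in Panc1 knockout libraries and at 17.2, 17.8 and 17.8 FPKM in Panc1 wild-type libraries (log2 difference -0.66, SE 0.048, adjusted p = 2.5e-07). The groups were far apart, and in MiaPaCa2 they were closer but also without overlap. There CHEK1 was at 12.8, 12.01 and 13.3 FPKM in knockout libraries and at 14.2, 15 and 15.1 FPKM in wild-type libraries (-0.20, adjusted p = 0.00669). CHEK2 fell by 0.28 in both lines. It averaged 7.66 ± 0.376 FPKM in Panc1 knockout and 9.53 ± 0.772 FPKM in Panc1 wild-type libraries, and 20.9 ± 0.159 FPKM in MiaPaCa2 knockout and 25.6 ± 1.02 FPKM in MiaPaCa2 wild-type libraries. CHEK2 has pseudogene copies, and how reads shared with them were counted is unknown. ATM (-0.53, adjusted p = 0.00298) and ATR (-0.50, adjusted p = 0.00103) fell in Panc1, with 6.38 to 6.64 FPKM of ATM in knockout and 8.63 to 10.5 FPKM in wild-type libraries. In MiaPaCa2 their differences were -0.03 and -0.04, and neither was called.

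MRE11, RAD50 and NBN form the complex that binds broken ends and activates ATM. All 3 fell in Panc1, and none was called in MiaPaCa2. RAD50, the subunit that tethers ends (hg19 chr5:131891711-131982041), was at 9.18, 9.07 and 8.48 FPKM in Panc1 knockout libraries and at 20.9, 20.5 and 16.6 FPKM in Panc1 wild-type libraries. The knockout mean was 46.05% of the wild-type mean (log2 difference -1.03, SE 0.165, adjusted p = 0.00015). This was the largest Panc1 difference among the members on the log2(FPKM + 1) scale, but as a share of the wild-type mean FANCB (29.1%) and XRCC2 (45.5%) were lower. With a pseudocount of 0.1 the differences were -1.63 for FANCB, -1.11 for XRCC2 and -1.10 for RAD50. In MiaPaCa2 RAD50 spread widely, with 16.5, 21.3 and 11.5 FPKM in knockout and 16.5, 12.9 and 15.1 FPKM in wild-type libraries (0.10, adjusted p = 0.687). The 3 knockout libraries there enclosed the wild-type values. MRE11, the nuclease of the complex, was at 4.95, 5.11 and 5.15 FPKM in Panc1 knockout libraries and at 9.11, 8.76 and 7.39 FPKM in Panc1 wild-type libraries (-0.63, adjusted p = 1.9e-05). NBN, which recruits ATM, was at 9.19, 9.13 and 7.92 FPKM in Panc1 knockout libraries and at 14.7, 15.2 and 13.3 FPKM in Panc1 wild-type libraries (-0.66, adjusted p = 3.1e-06). For both genes every Panc1 knockout library lay below every Panc1 wild-type library. In MiaPaCa2 MRE11 averaged 6.78 ± 0.721 FPKM in knockout and 7.06 ± 0.176 FPKM in wild-type libraries, and NBN 4.4 ± 0.241 FPKM in knockout and 4.71 ± 0.0681 FPKM in wild-type libraries.

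RBBP8 (CtIP) starts the cutting back of ends with this complex, and EXO1 and BLM, a nuclease and a helicase, extend it. All 3 fell in Panc1, and EXO1 also fell in MiaPaCa2. EXO1 was at 3.89, 3.5 and 4.42 FPKM in Panc1 knockout libraries and at 7.29, 7.12 and 6.54 FPKM in Panc1 wild-type libraries (-0.70, adjusted p = 1.3e-05). In MiaPaCa2 it was at 8.69, 7.13 and 8.76 FPKM in knockout libraries and at 10.001, 10.6 and 10.5 FPKM in wild-type libraries (-0.31, adjusted p = 0.0121). The groups were apart in both lines. BLM averaged 4.47 ± 0.435 FPKM in Panc1 knockout and 6.7 ± 0.163 FPKM in Panc1 wild-type libraries (-0.50, adjusted p = 5e-05). RBBP8 averaged 11.1 ± 0.816 FPKM in Panc1 knockout and 15.2 ± 0.736 FPKM in Panc1 wild-type libraries (-0.42, adjusted p = 0.00257), a call that was lost after the GC and length correction (-0.15, adjusted p = 0.116). The MiaPaCa2 differences of BLM and RBBP8 were -0.16 and -0.01, and neither was called.

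BRCA1 pairs with BARD1 as a ubiquitin ligase, PALB2 joins BRCA1 to BRCA2, BRCA2 acts on the strands that resection exposes, and BRIP1 is a helicase that binds BRCA1. All but BARD1 fell in Panc1. BRCA1 (hg19 chr17:41196312-41322262) was at 6.13, 5.22 and 5.46 FPKM in Panc1 knockout libraries and at 10.5, 10.2 and 8.58 FPKM in Panc1 wild-type libraries (-0.70, SE 0.088, adjusted p = 2.1e-05). In MiaPaCa2 it was at 10.6, 9.99 and 8.55 FPKM in knockout libraries and at 10.2, 9.29 and 9.18 FPKM in wild-type libraries (0.02, adjusted p = 0.889). The Panc1 groups were apart, and the MiaPaCa2 groups overlapped throughout. BRCA2 was low, with 1.08, 1.11 and 1.05 FPKM in Panc1 knockout libraries and 2.2, 2.23 and 1.69 FPKM in Panc1 wild-type libraries (-0.54, adjusted p = 0.00166). In MiaPaCa2 BRCA2 was at 1.99, 2.35 and 1.26 FPKM in knockout libraries and at 2.54, 2.27 and 2.6 FPKM in wild-type libraries (-0.29, adjusted p = 0.0785). Library 3 of the MiaPaCa2 knockout group was far below the others for BRCA2. It was the lowest of its group also for RAD50, ATM, ATR and BRCA1, among 13 of the 34 members. Library 2 of that group was the lowest for 18 members, and Panc1 wild-type library 3 was the lowest of its group for 22. In all, 11 members were lower in MiaPaCa2 without its knockout library 3, and the BRCA2 difference there was -0.13. The difference of BRCA2 between the lines was then called (-0.41, adjusted p = 0.0116). After the GC and length correction BRCA2 was called lower in MiaPaCa2 (-0.33, adjusted p = 0.00465). BRIP1 fell in both lines, with 1.35 ± 0.0244 FPKM in Panc1 knockout and 2.32 ± 0.207 FPKM in Panc1 wild-type libraries (-0.50, adjusted p = 3.8e-05). In MiaPaCa2 BRIP1 averaged 2.26 ± 0.0788 FPKM in knockout and 3.01 ± 0.313 FPKM in wild-type libraries (-0.29, adjusted p = 0.00516). PALB2 fell in Panc1 (-0.31, adjusted p = 0.0008), a call that was lost after the GC and length correction (-0.09, adjusted p = 0.135).

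BARD1 was not called in Panc1. It was at 3.04, 2.58 and 2.84 FPKM in Panc1 knockout libraries and at 3.36, 3.03 and 3.004 FPKM in Panc1 wild-type libraries, which overlap (-0.11, adjusted p = 0.114). After the GC and length correction the BARD1 difference was 0.22 and was called (adjusted p = 0.0103), and with quantile normalization it was 0.03. In MiaPaCa2 BARD1 averaged 4.35 ± 0.0975 FPKM in knockout and 5.09 ± 0.203 FPKM in wild-type libraries (-0.19, adjusted p = 0.0301), and that call was lost without any 1 of 5 libraries.

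**Figure D2:**
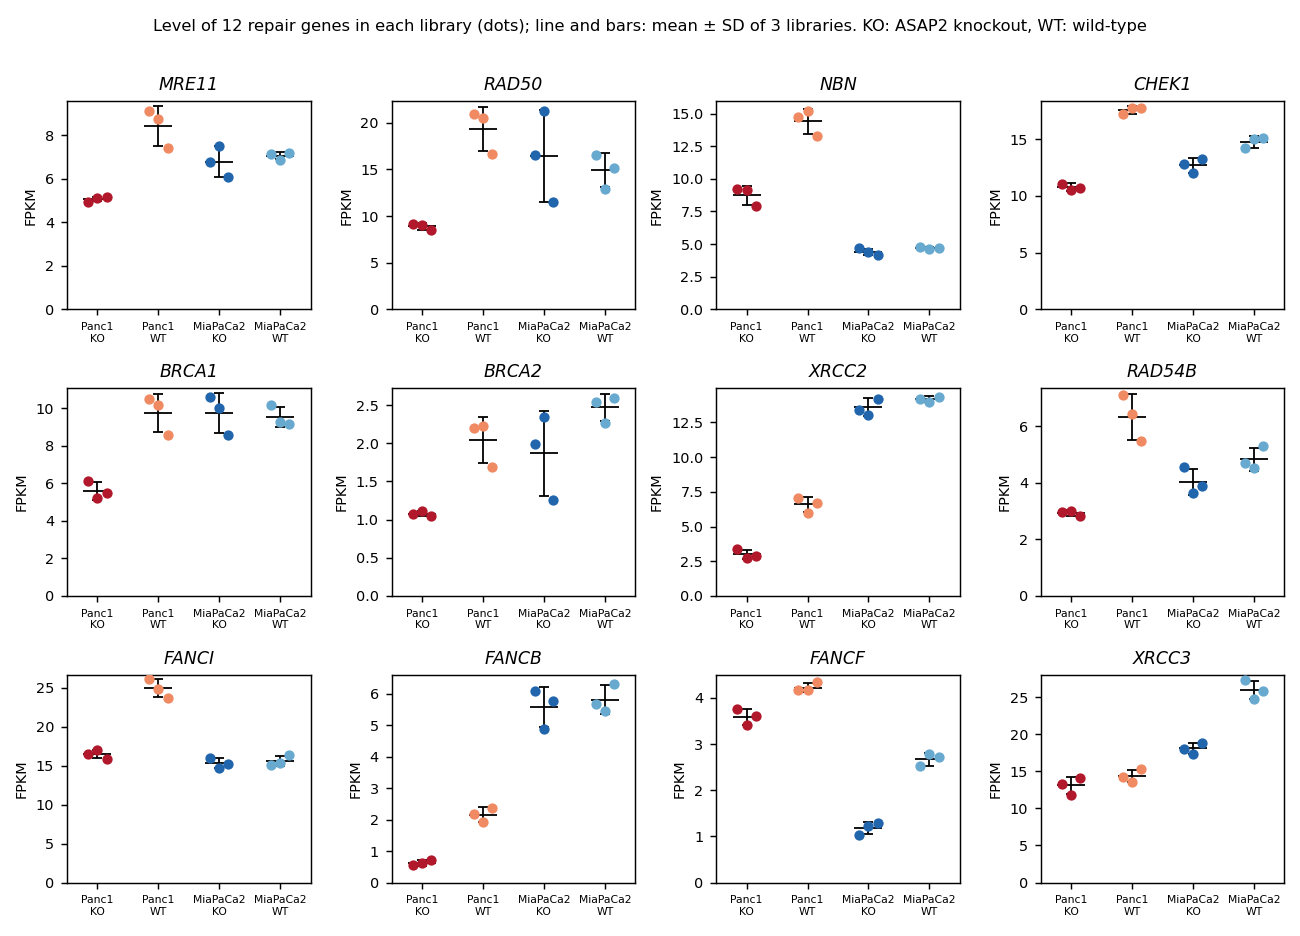
FPKM of 12 of the genes in each of the 12 libraries (dots), with the mean and SD of 3 libraries (line and bars), knockout left of wild-type in each line. Every panel starts at 0. RAD50, NBN, XRCC2 and FANCB are apart between the Panc1 groups and overlap between the MiaPaCa2 groups, FANCF is apart in both lines, and XRCC3 is apart in MiaPaCa2 and overlaps in Panc1.

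RAD51B, RAD51C, RAD51D and XRCC2 form a complex of homologous recombination, and RAD51C also pairs with XRCC3. These 5 genes did not move together. XRCC2 (hg19 chr7:152341861-152373278) was at 3.38, 2.71 and 2.91 FPKM in Panc1 knockout libraries and at 7.08, 5.97 and 6.71 FPKM in Panc1 wild-type libraries (-0.92, SE 0.07, adjusted p = 3.4e-07). In MiaPaCa2 the groups overlapped, with 13.4, 13.004 and 14.2 FPKM in knockout and 14.2, 13.95 and 14.3 FPKM in wild-type libraries (-0.06, adjusted p = 0.558). RAD51B was the one member called higher in Panc1 knockout libraries, at 2.6, 2.09 and 2.79 FPKM against 1.61, 1.94 and 2.02 FPKM in Panc1 wild-type libraries (0.29, adjusted p = 0.0124). The groups lay next to each other, and the call was lost without Panc1 knockout library 3 or without Panc1 wild-type library 1. RAD51D fell in Panc1 (-0.33, adjusted p = 0.0189) but was not called under median-ratio scaling, quantile normalization or the GC and length correction (-0.27, adjusted p = 0.0564).

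XRCC3 and RAD51C were not called in Panc1. XRCC3 was at 18.03, 17.3 and 18.8 FPKM in MiaPaCa2 knockout libraries and at 27.3, 24.8 and 25.8 FPKM in MiaPaCa2 wild-type libraries (-0.50, adjusted p = 0.00014). In Panc1 it was at 13.3, 11.8 and 14.1 FPKM in knockout libraries and at 14.2, 13.6 and 15.3 FPKM in wild-type libraries (-0.13, adjusted p = 0.11). The MiaPaCa2 groups were apart and the Panc1 groups overlapped. After the GC and length correction XRCC3 was called lower in Panc1 too (-0.21, adjusted p = 0.00793). RAD51C averaged 7.77 ± 0.853 FPKM in Panc1 knockout and 8.23 ± 0.847 FPKM in Panc1 wild-type libraries, and 17.9 ± 0.445 FPKM in MiaPaCa2 knockout and 18.6 ± 0.742 FPKM in MiaPaCa2 wild-type libraries. It was called in neither line, and its Panc1 difference of -0.07 was above 0 under median-ratio and quantile scaling and after the GC and length correction.

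RAD54L and RAD54B are motor proteins of strand invasion, and RAD51AP1 stimulates the same step. All 3 fell in Panc1, and none was called in MiaPaCa2. RAD54B was at 2.95, 2.999 and 2.81 FPKM in Panc1 knockout libraries and at 7.09, 6.43 and 5.49 FPKM in Panc1 wild-type libraries (-0.90, adjusted p = 2.8e-06). The Panc1 knockout mean was 46.1% of the wild-type mean. RAD51AP1 averaged 5.27 ± 0.593 FPKM in Panc1 knockout and 8.87 ± 0.415 FPKM in Panc1 wild-type libraries (-0.66, adjusted p = 0.00011). After the GC and length correction the RAD51AP1 difference was -0.25 and still called (adjusted p = 0.0324). RAD54L averaged 10.5 ± 0.355 FPKM in Panc1 knockout and 12.6 ± 0.414 FPKM in Panc1 wild-type libraries (-0.24, adjusted p = 0.0381), and this call was lost without any single Panc1 library. The RAD54L call was also lost under median-ratio scaling (-0.11, adjusted p = 0.287) and quantile normalization, and kept after the GC and length correction (-0.24, adjusted p = 0.0227). In MiaPaCa2 the differences were -0.22 for RAD54B, -0.23 for RAD51AP1 and -0.15 for RAD54L.

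In the Fanconi core, FANCL is the ubiquitin ligase, FANCB binds it, FANCC, FANCE and FANCF bring in the substrate, FANCA and FANCG help the complex assemble and reach DNA, and FANCM anchors it there. Of these 8 genes 7 fell in Panc1 and 5 in MiaPaCa2. These were 87.5% and 62.5%, against 41.6% and 16.3% of all genes called lower. Their median minus that of all genes was -0.15 in Panc1 and -0.27 in MiaPaCa2. With median-ratio scaling FANCE, FANCF, FANCG and FANCL were not called in Panc1. The largest fall among these 8 was that of FANCB in Panc1 and of FANCF in MiaPaCa2. FANCB (hg19 chrX:14708510-14891377) was at 0.545, 0.611 and 0.725 FPKM in Panc1 knockout libraries and at 2.17, 1.91 and 2.38 FPKM in Panc1 wild-type libraries. The knockout mean was 29.1% of the wild-type mean (log2 difference -0.95, SE 0.085, adjusted p = 1.3e-06). In MiaPaCa2 FANCB was at 6.1, 4.87 and 5.78 FPKM in knockout libraries and at 5.66, 5.44 and 6.32 FPKM in wild-type libraries, which overlap (-0.05, adjusted p = 0.704). FANCF (hg19 chr11:22644079-22647369) was at 1.02, 1.23 and 1.28 FPKM in MiaPaCa2 knockout libraries and at 2.52, 2.78 and 2.71 FPKM in MiaPaCa2 wild-type libraries. The knockout mean was 44.2% of the wild-type mean (-0.75, SE 0.06, adjusted p = 2.5e-06), the largest MiaPaCa2 difference among the members. In Panc1 FANCF was at 3.76, 3.42 and 3.61 FPKM in knockout libraries and at 4.16, 4.17 and 4.34 FPKM in wild-type libraries (-0.19, adjusted p = 0.0165), a call lost after the GC and length correction (-0.02, adjusted p = 0.804).

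FANCA fell in both lines, and its difference between them was 0.02 (adjusted p = 0.889). It averaged 8.5 ± 0.311 FPKM in Panc1 knockout and 10.9 ± 0.779 FPKM in Panc1 wild-type libraries (-0.33, adjusted p = 0.00154). In MiaPaCa2 FANCA averaged 24.5 ± 2.35 FPKM in knockout and 31.3 ± 1.8 FPKM in wild-type libraries (-0.35, adjusted p = 0.00293). FANCL was at 9.46, 10.98 and 8.68 FPKM in MiaPaCa2 knockout libraries and at 15.8, 12.2 and 14.6 FPKM in MiaPaCa2 wild-type libraries (-0.50, adjusted p = 0.00209). All MiaPaCa2 knockout libraries were below the wild-type ones. In Panc1 FANCL averaged 13.8 ± 0.811 FPKM in knockout and 16.7 ± 1.56 FPKM in wild-type libraries (-0.25, adjusted p = 0.0409), and the difference turned to 0.17 after the GC and length correction (adjusted p = 0.0425). FANCE fell in both lines (-0.20, adjusted p = 0.0393 in Panc1; -0.26, adjusted p = 0.0195 in MiaPaCa2), and leaving out single libraries ended the call in each. FANCC was not called in Panc1 (0.05, adjusted p = 0.603) and fell in MiaPaCa2 (-0.26, adjusted p = 0.0216), a call lost when each line was fitted alone (adjusted p = 0.0963) and without MiaPaCa2 knockout library 1 or 2 or MiaPaCa2 wild-type library 2. FANCG (-0.25, adjusted p = 0.00942) and FANCM (-0.39, adjusted p = 0.00091) fell in Panc1 and were not called in MiaPaCa2. Both Panc1 calls depend on the processing, since FANCG was not called under median-ratio scaling or quantile normalization, and FANCM was not called after the GC and length correction (-0.07, adjusted p = 0.417).

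FANCD2 and FANCI are the pair that the core ubiquitinates, and SLX4 is the scaffold of the nucleases that cut at a crosslink. FANCI was at 16.5, 16.96 and 15.9 FPKM in Panc1 knockout libraries and at 26.1, 24.8 and 23.7 FPKM in Panc1 wild-type libraries (-0.57, adjusted p = 1.3e-06). The Panc1 groups were apart, while in MiaPaCa2 FANCI averaged 15.3 ± 0.641 FPKM in knockout and 15.6 ± 0.661 FPKM in wild-type libraries (-0.02, adjusted p = 0.771). FANCD2 fell less in Panc1, with 8.58 ± 0.582 FPKM in knockout and 9.88 ± 0.308 FPKM in wild-type libraries (-0.19, adjusted p = 0.00765), and the call was lost under median-ratio scaling (-0.06), under quantile scaling and after the GC and length correction (-0.01, adjusted p = 0.854). FANCD2 was not called in MiaPaCa2 (0.01, adjusted p = 0.901). With FPKM as deposited SLX4 was called in neither line, at 7.19 ± 0.235 FPKM in Panc1 knockout and 8.18 ± 0.176 FPKM in Panc1 wild-type libraries (-0.17, adjusted p = 0.0623). It was called lower in Panc1 after the GC and length correction (-0.22, adjusted p = 0.0108) and on a TPM scale. In 15 of the 34 members the annotated gene overlaps a listed gene on the other strand, such as NBR2 at BRCA1, VRK2 at FANCL and POLG at FANCI, and since nothing says whether strand was used their reads cannot be told apart.

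The difference between the lines was tested itself, as the Panc1 difference minus the MiaPaCa2 difference. It was called below 0 for 18 members and above 0 for 4, at a background of 37.4% and 20.0% of all genes. The largest on the log2(FPKM + 1) scale were RAD50 (-1.13), FANCB (-0.90), XRCC2 (-0.86) and BRCA1 (-0.72) below 0, and with a pseudocount of 0.1 FANCB (-1.57) came before RAD50 (-1.21). Those above 0 were FANCF (0.57), RAD51B (0.45), XRCC3 (0.37) and FANCC (0.31). All 6 members of end sensing and resection were below 0. The counts moved with the scaling: 11 below and 5 above 0 with median-ratio scaling, 10 and 6 with quantile normalization, 20 and 3 on a TPM scale, and 8 and 6 after the GC and length correction. After that correction 23.5% of the members were below 0 and 17.6% above 0, against 26.4% and 25.6% of all genes, so neither share of the members exceeded the background. With quantile normalization 29.4% of the members and 27.8% of all genes were below 0, with median-ratio scaling 32.4% and 26.1%, and on a TPM scale 58.8% and 43.8%. The 8 that were below 0 after that correction were CHEK1, MRE11, RAD50, BRCA1, XRCC2, RAD54B, FANCB and FANCI. CHEK1, CHEK2, EXO1, BRIP1, FANCA, FANCE, FANCF and FANCL were called lower in both lines with FPKM as deposited, and RAD51C and SLX4 were called in neither. The shares of all genes called in both lines or in neither are not given here, so these lists have no background. The lines share no libraries.

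GC content moved with the Panc1 differences. Across the 34 members the Panc1 difference and the GC content of the longest transcript had r = 0.50 (Spearman's rho 0.56), and across 12303 genes tested r = 0.35 (rho 0.41). Genes are not independent replicates, and the values come from the same 6 libraries, so these are descriptions. Of all genes 41.6% were called lower in Panc1 with FPKM as deposited, and 31.1% after the GC and length correction. Shares of all genes by GC content are not given here, so the counts that follow have no background of like GC content. The 27 members with a GC content below 50% had a median Panc1 difference of -0.50, and 24 of them were lower. The 7 at 50% or more (XRCC3, RAD54L, FANCA, FANCC, FANCE, FANCG and SLX4) had a median of -0.20, and 4 were lower. After the correction the medians were -0.25 with 17 lower and -0.22 with 6 lower. RAD50 was then at -0.82, XRCC2 at -0.65, FANCB at -0.59, RAD54B at -0.55, BRCA1 at -0.52 and EXO1 at -0.49, and all 6 remained called. In MiaPaCa2 the correlation with GC content was -0.20 (rho -0.07) across the members.

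**Figure D3:**
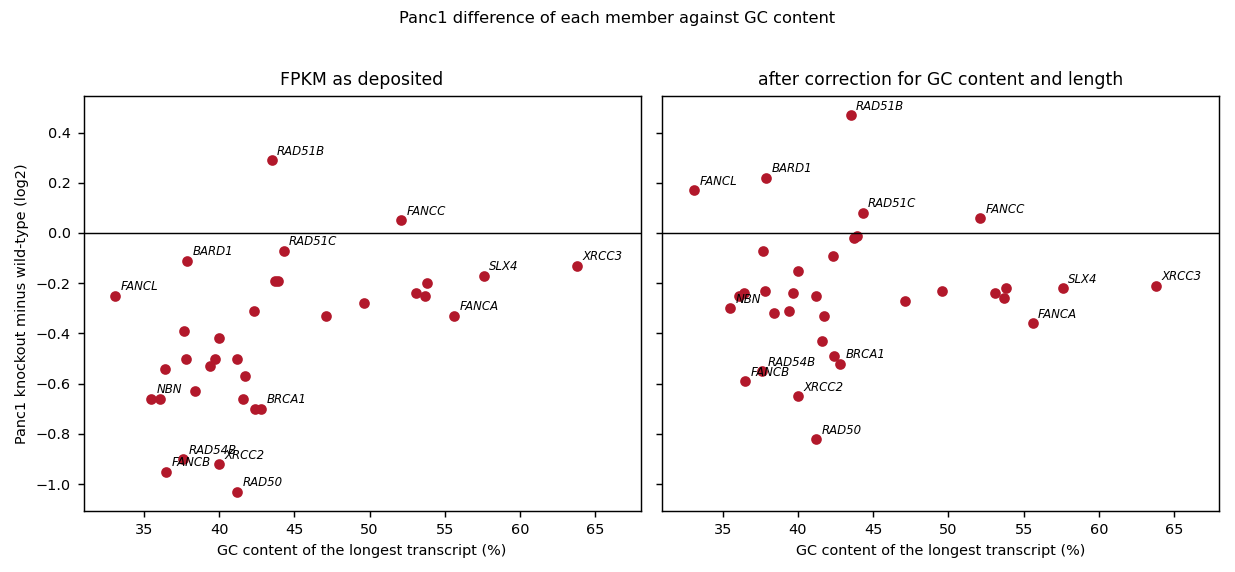
Panc1 knockout minus wild-type difference (log2 scale) of each of the 34 genes against the GC content of its longest transcript, with FPKM as deposited (left) and after the GC and length correction (right). With FPKM as deposited the lowest points have a GC content below 45%, and after correction the members below 50% have a median of -0.25 and the others -0.22.

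Related genes were counted in the same way. Of 57 other genes of these pathways tested, 37 were lower and 7 higher in Panc1 knockout libraries, with a median of -0.26. In MiaPaCa2 12 were lower and 9 higher, with a median of -0.03. In Panc1 these were 64.9% lower and 12.3% higher, against 41.6% and 21.8% of all genes. In MiaPaCa2 they were 21.1% lower and 15.8% higher, near the 16.3% and 17.8% of all genes. By a rule of size, the named Panc1 decreases were GEN1, a resolvase of crossed DNA strands, at 1.1 ± 0.105 FPKM in knockout and 3.67 ± 0.323 FPKM in wild-type libraries (-1.15), FIGNL1 (-1.07), a AAA ATPase, and BRCC3 (-0.92), a deubiquitinase of the BRCA1-A complex. The named Panc1 increases were FAAP20 (0.60), a partner of FANCA, BABAM2 (0.58), another BRCA1-A subunit, and MAD2L2 (0.49), part of shieldin and of a translesion polymerase. BRCC3 and BABAM2 lie in the same complex and were called in opposite directions in Panc1. The named Panc1 decreases have a GC content of 38.8% to 41.04%, and the named Panc1 increases of 49.4% to 61.2%. The part of GC content in these differences was not tested. In MiaPaCa2 the named increases were RAD52 (0.37), an annealing factor, UIMC1 (0.33), which recruits BRCA1-A, and ZSWIM7 (0.24), a zinc finger protein of homologous recombination. The decreases there were TONSL (-0.43), a reader of newly replicated chromatin, CLSPN (-0.42), which couples ATR to CHEK1, and CENPX (-0.38), a FANCM partner. UIMC1 was called lower in Panc1 (-0.49) and higher in MiaPaCa2.

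End joining is the other main route of break repair. Of 14 end joining genes tested, 10 were lower and 2 higher in Panc1 knockout libraries, with a median of -0.43. These were 71.4% and 14.3%, against 41.6% and 21.8% of all genes. In MiaPaCa2 3 were lower and 2 higher. These were 21.4% and 14.3%, near the 16.3% and 17.8% of all genes. XRCC4, a cofactor of DNA ligase IV, averaged 3.31 ± 0.492 FPKM in Panc1 knockout and 6.25 ± 0.161 FPKM in Panc1 wild-type libraries (-0.76, adjusted p = 7.6e-06). SHLD2, a shieldin subunit, fell in both lines (-0.67 in Panc1 and -0.30 in MiaPaCa2), and PAXX, a KU-binding factor, fell by 0.22 in MiaPaCa2. Genes of DNA replication and mitosis were counted as well. Of 42 replication genes 32 (76.2%) were lower in Panc1 and 27 (64.3%) in MiaPaCa2 knockout libraries, with medians of -0.37 and -0.28. Of 40 mitotic genes 34 (85.0%) and 18 (45.0%) were lower, with medians of -0.61 and -0.23. In each line 1 replication gene (2.38%) was higher, and 2 mitotic genes (5.0%) were higher in Panc1 and none in MiaPaCa2. The shares of all genes called lower were 41.6% in Panc1 and 16.3% in MiaPaCa2, and of those called higher 21.8% and 17.8%. The proliferation marker MKI67 averaged 44.8 ± 0.777 FPKM in Panc1 knockout and 66.1 ± 8.32 FPKM in Panc1 wild-type libraries (-0.54, adjusted p = 0.0002), and 46.4 ± 5.12 FPKM in MiaPaCa2 knockout and 59.1 ± 3.1 FPKM in MiaPaCa2 wild-type libraries (-0.35, adjusted p = 0.011). The part of these changes in those of the repair genes was not tested.

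**Figure D4:**
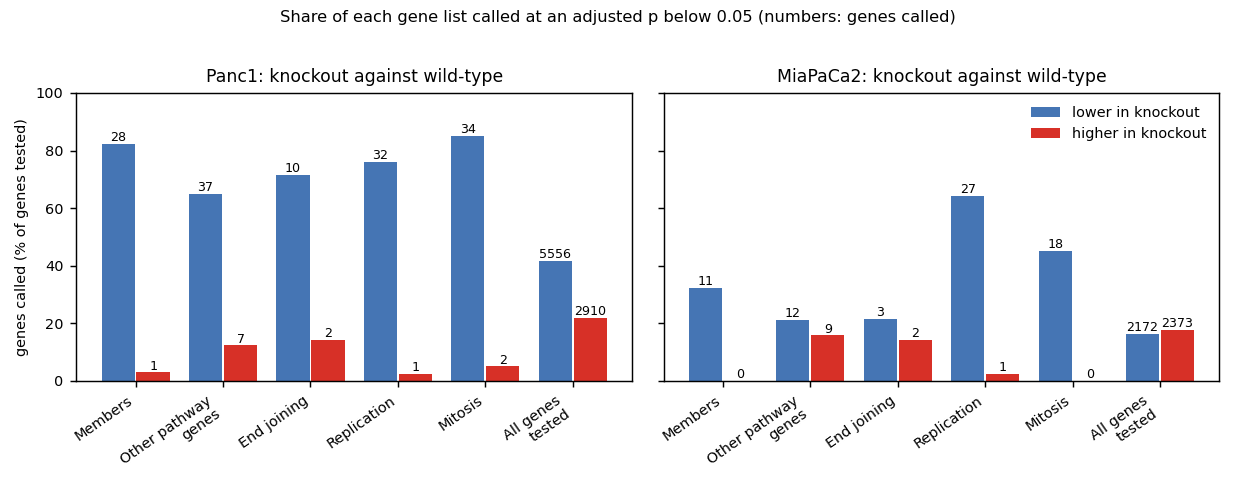
Percent of the genes tested in each list that were called lower (blue) or higher (red) in knockout libraries, in Panc1 (left) and MiaPaCa2 (right), with the number of genes called above each bar. In Panc1 82.4% of the members and 41.6% of all genes were lower, and in MiaPaCa2 32.4% of the members, 64.3% of the replication genes and 16.3% of all genes were lower.

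Between the wild-type lines, 12 members were higher in Panc1, 12 were lower and 10 were not called, at a background of 41.8% of all genes higher and 40.9% lower. At least 2-fold differences were called for 2 members higher in Panc1 (14.7% of all genes) and 5 lower (10.2%). The genes higher in Panc1 were NBN, at 14.7, 15.2 and 13.3 FPKM in Panc1 wild-type and 4.78, 4.65 and 4.69 FPKM in MiaPaCa2 wild-type libraries (log2 difference 1.43, Panc1 minus MiaPaCa2), and SLX4 (1.14). Those lower in Panc1 were FANCA (-1.44), CHEK2 (-1.34), FANCB (-1.11), RAD51C (-1.09) and XRCC2 (-1.003). FANCB and XRCC2, which fell in Panc1 knockout libraries, were at 2.15 ± 0.237 and 6.59 ± 0.563 FPKM in wild-type Panc1, against 5.81 ± 0.461 and 14.2 ± 0.199 FPKM in wild-type MiaPaCa2. BRCA1 was not called, with 9.75 ± 1.02 FPKM in wild-type Panc1 and 9.54 ± 0.535 FPKM in wild-type MiaPaCa2 libraries (0.02, adjusted p = 0.801). After the GC and length correction 10 members were higher and 16 lower in wild-type Panc1, 29.4% and 47.1% of the members against 37.4% and 48.1% of all genes.

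By level per length, FANCI was the highest member in wild-type Panc1 at 24.9 ± 1.17 FPKM, followed by FANCG at 21.5 ± 0.64, RAD50 at 19.3 ± 2.34 and CHEK1 at 17.6 ± 0.378 FPKM. RAD50, between 16.6 and 20.9 FPKM, overlapped both FANCG, which was lowest at 20.7 FPKM, and CHEK1. In wild-type MiaPaCa2 FANCA led at 31.3 ± 1.8 FPKM, then XRCC3 at 25.97 ± 1.25 and CHEK2 at 25.6 ± 1.02 FPKM, which overlapped each other. The lowest members in wild-type cells were FANCM, at 1.35 ± 0.214 FPKM in Panc1 and 1.97 ± 0.0954 FPKM in MiaPaCa2, and RAD51B, at 1.85 ± 0.218 FPKM in Panc1 and 2.17 ± 0.168 FPKM in MiaPaCa2. In Panc1 knockout libraries FANCB had the lowest mean, at 0.627 ± 0.0911 FPKM, and overlapped FANCM, which lay between 0.685 and 0.867 FPKM.

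**Figure D5:**
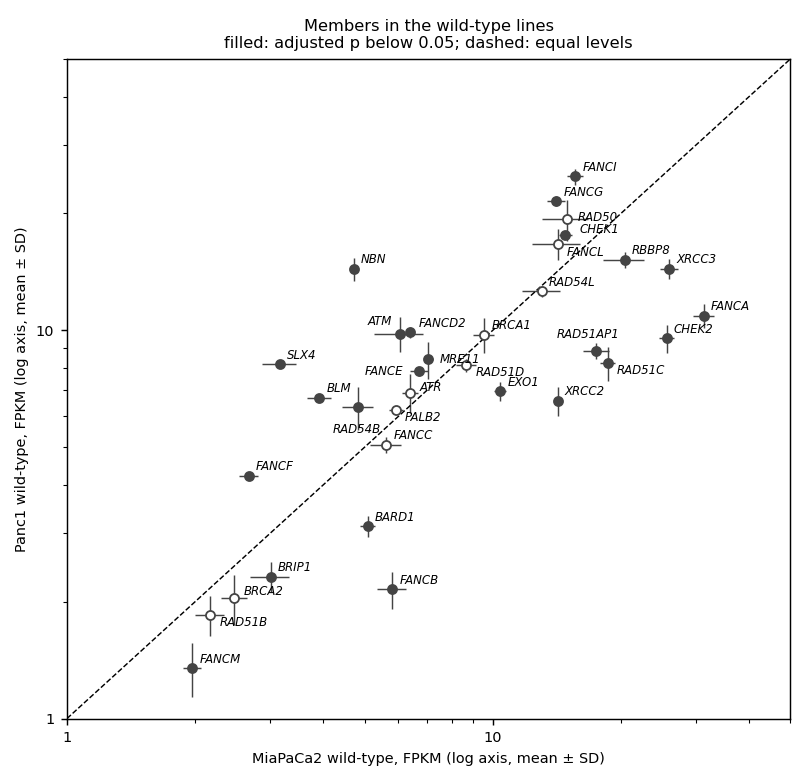
Mean FPKM of the 34 genes in wild-type Panc1 (vertical) against wild-type MiaPaCa2 (horizontal), both on log axes, with the SD of 3 libraries, and a dashed line at equal levels. Filled points were called at an adjusted p below 0.05. NBN and SLX4 lie farthest above the line, and FANCA, CHEK2, FANCB, RAD51C and XRCC2 farthest below it.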

How the data were processed

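The data are 12 RNA-seq libraries, 3 each from knockout and wild-type cells of both lines. Per the submitters' processing notes and the labels' protocols, total RNA was sequenced on a BGISEQ-500, reads were aligned to hg19 by TopHat2 2.0.14 and STAR 2.5.2a gave FPKM. Each deposited table lists FPKM by gene symbol. For library type, strand and read depth the sources used here give nothing, and single-read steps could not be recovered, so a count test was not possible and no counting interval is given.

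Values were tested as log2(FPKM + 1) with limma 3.58.1 (R 4.3.3), 4 group means, 8 residual degrees of freedom, a mean-variance trend and two-sided tests. Benjamini-Hochberg adjustment ran over the 13340 genes whose mean reached 1 FPKM in the 6 libraries of either line, and all 34 members passed. A gene missing from a library was taken as 0. On simulated data with this design, 99% of genes changed by 1 on the log2 scale were recovered in the Panc1 comparison. Of those changed by 0.5, 90% were recovered, over 13340 genes. Only 200 genes were changed, with independent normal spread and no shift by library scale or GC content. The recovery therefore does not cover such shifts.

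Transcript length and GC content came from GENCODE on GRCh37 for 12303 genes (92.2%), and the correction used loess per library. The other alternatives were a pseudocount of 0.1, no filter or one of 5 FPKM, TPM, median-ratio and quantile scaling, no trend, array weights, fits per line, a replicate block, only genes that all libraries list, and each library left out. The members, lists, rules and alternatives were chosen with earlier results of these data known. One pathway gene is not reported here. Named genes were all members, ASAP2, of the other pathway genes the 3 largest called changes each way per line, and of end joining the 2 largest, with no overlap between groups and at least 1 FPKM on average where higher. MKI67, UIMC1 in Panc1 and the cell type markers are named outside this rule.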

Additional observations from a re-analysis of the deposited data

Results flagged for a closer look

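For 22 members the knockout difference differed between the lines by the test of that difference, Panc1 minus MiaPaCa2 on the log2(FPKM + 1) scale. This difference was called below 0 for 52.9% of the members and 37.4% of all genes, and above 0 for 11.8% of the members and 20.0% of all genes. After the GC and length correction 23.5% of the members and 26.4% of all genes were below 0. In end sensing and resection these were RAD50 at -1.13, MRE11 at -0.58, NBN at -0.58, RBBP8 at -0.40, EXO1 at -0.39 and BLM at -0.33. Among the kinases they were ATM at -0.50, ATR at -0.46 and CHEK1 at -0.46. Among BRCA1 and its partners they were BRCA1 at -0.72 and PALB2 at -0.35. Among XRCC2, XRCC3, their partners and the genes of strand invasion they were XRCC2 at -0.86, RAD54B at -0.68 and RAD51AP1 at -0.43, with RAD51B at 0.45 and XRCC3 at 0.37 in the other direction. In the Fanconi pathway they were FANCB at -0.90, FANCI at -0.54, FANCM at -0.37 and FANCD2 at -0.20, with FANCF at 0.57 and FANCC at 0.31 in the other direction. Of the 22, 11 were called under every alternative in which the gene was tested, 22 or 23 of them. These were CHEK1, MRE11, RAD50, BRCA1, RAD51B, XRCC2, XRCC3, RAD54B, FANCB, FANCF and FANCI. Among the others, the call was made in 12 of 23 alternatives for ATM and in 11 of 23 for RBBP8 and for FANCD2.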

How the results depend on the processing

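Members called higher in Panc1 knockout libraries, 1 with FPKM as deposited, numbered 2 under quantile normalization and 3 after the GC and length correction. With single libraries left out they numbered 0 to 1. Under the filter of 5 FPKM they numbered 0, but RAD51B did not pass that filter and was not tested there. Members whose difference between the lines was called above 0 numbered 4 as reported. With the filter of 5 FPKM, which RAD51B and FANCF did not pass, they numbered 2. With libraries left out they numbered 3 to 4. Those called below 0, 18 as reported, numbered 11 with median-ratio scaling, 10 with quantile normalization, 8 after the GC and length correction and 14 to 19 with libraries left out. Among values called before or after that correction, the sign changed for BARD1 in Panc1 (0.218, adjusted p = 0.0103) and FANCL in Panc1 (0.168, adjusted p = 0.0425). It also changed for FANCD2 between the lines (0.014, adjusted p = 0.874). FANCL was called in opposite directions before and after, BARD1 was called only after and FANCD2 only before. The cause was not tested. With libraries left out, members lower in Panc1 numbered 24 to 29, lower in MiaPaCa2 8 to 12, higher in wild-type Panc1 10 to 14 and lower there 12 to 13. Of the 13340 genes tested, 4980 to 5776 were then lower in Panc1 and 1659 to 2200 lower in MiaPaCa2. In wild-type Panc1 5370 to 5658 of them were higher and 5256 to 5540 lower. Of the calls, 18 of 29 in Panc1 and 8 of 11 in MiaPaCa2 were made under every alternative in which the gene was tested (23 or 24), and 21 of 24 between the wild-type lines (22 or 23). Without the members on chromosomes 2 and 7, 26 of 31 were lower in Panc1 and 9 in MiaPaCa2. These were 83.9% and 29.03%, against 41.6% and 16.3% of all genes tested. With the replicate number as a replicate block, 25 members were lower and 1 higher in Panc1, and 10 were lower in MiaPaCa2. Of the 13340 genes tested, 5370 were then lower and 2771 higher in Panc1, and 1925 were lower in MiaPaCa2. Whether the numbers pair the libraries is not known. Same-numbered knockout and wild-type libraries correlated in their deviations at 0.017 to 0.078 in Panc1 and at -0.165 to -0.002 in MiaPaCa2. Differently numbered ones correlated at -0.097 to 0.058 in Panc1 and at -0.192 to 0.254 in MiaPaCa2. The deviations are from means of 3 libraries, which ties them to each other, so these values cannot decide it. Not every library correlated best with its own number. Read depth is unknown. The precision of low members such as FANCB and FANCM therefore rests on the spread among libraries, pooled over the groups of 3.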
